A study of Mus musculus with 11 samples.

Results

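S265D-hJMJD1A was compared with WT-hJMJD1A in im-scWAT cells, an immortalized preadipocyte line from the inguinal subcutaneous white fat of mice. JMJD1A (the mouse gene is Kdm3a) takes methyl groups off lysine 9 of histone H3, a mark of silent chromatin, and the serine named S265 in the protein is phosphorylated by protein kinase A when beta-adrenergic receptors raise cAMP. In S265D an aspartate stands in for that serine and mimics the phosphorylated form. In all 3 cultures the mouse Jmjd1a was knocked down by a retroviral shRNA and human JMJD1A was put back by a second retrovirus, so the cells are drug-selected pools and the promoter of the vector, not the Kdm3a promoter, drove the human protein. The cells received 0.5 μM rosiglitazone (ROS, a PPARγ ligand), 5 μM dexamethasone, 0.5 mM IBMX, 0.125 mM indomethacin, 5 μg/ml insulin and 1 nM T3 at day 0, were kept in insulin, T3 and ROS from day 2, and were harvested at day 8. The labels place a change to medium without ROS at day 7.

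There was 1 S265D sample and there were 2 WT samples, labelled repA and repB, among the 11 RNA-seq samples of the series. The labels do not say whether repA and repB were separate infections or separate dishes. Each gene was read from its representative sense row in FPKM, which scales the mapped sequence to exon length and sequencing depth, and 12928 of 29955 genes reached 1 FPKM in at least 1 of the 3 samples. With 1 S265D sample a gene was counted as different only where S265D lay at least 2-fold above, or at least 2-fold below, both WT samples on the scale of log2(FPKM + 0.1). These counts carry no p-value. The margin of a gene is its log2 difference from the nearer WT sample.

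Differentiating preadipocytes become beige adipocytes when PPARγ and its partners switch on a thermogenic program on top of the general program of fat storage. That program burns fatty acids in mitochondria, and its marker Ucp1 lets protons leak back across the inner membrane as heat. Removal of silencing histone methylation at thermogenic genes is the step JMJD1A is known for.

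The mutated position is shown because it defines the comparison. The codon with the same number in the mouse Kdm3a reading frame, in the GENCODE vM1 transcript Kdm3a-201, is a serine codon that follows codons for basic residues and another serine codon. The 45 bases around it are given with the codon in capitals. The human sequence was not used here.
Kdm3a codon: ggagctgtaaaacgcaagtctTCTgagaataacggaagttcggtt

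Kdm3a stood at 20.4 FPKM in WT repA, 17.9 in WT repB and 23.0 in S265D, and at 21.1 in the untransduced cells of day 8 with ROS. The S265D culture therefore carried about as much signal on the mouse Kdm3a row as the WT cultures. How many of these reads come from the human vector was not tested, and the values do not check the label. The cultures were adipocytes by their markers. Fabp4, the fatty acid carrier of adipocytes, was at 12393, 26902 and 22872 FPKM in repA, repB and S265D, and Adipoq, which encodes adiponectin, at 978, 738 and 589 FPKM. Of 19 macrophage and leukocyte markers 3 reached 1 FPKM, and Ptprc, Emr1 and Tyrobp were at 0 in all 3 samples. Of 14 endothelial markers 2 reached 1 FPKM, and of 22 skeletal muscle markers 1 did. The depth was 3.70 and 3.67 Gb of mapped bases for the WT samples and 4.95 Gb for S265D. On a gene with 2 kb of exon, 100 mapped bases then gave 0.0135, 0.0136 and 0.0101 FPKM in repA, repB and S265D. In these bulk samples fewer cells of a type and less RNA per cell cannot be told apart.

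S265D lay between the 2 WT samples for most genes. It was above both WT samples by any margin in 2833 genes (21.9%), below both in 2641 (20.4%) and between them in 7454 (57.7%). At least 2-fold above both were 70 genes (0.541%), and at least 2-fold below both were 24 (0.186%). Of the 70, 8 have rows that overlap another of them and may not be separate signals, namely Smoc2 and smoc2, Lppr4 and D3Bwg0562e, Rassf4 and 8430408G22Rik, and Snurf and Snrpn. The 2 WT samples were themselves 2-fold or more apart in 2420 genes (18.7%). In these 2420 genes S265D lay between them in 1964 (81.2%) and nearer to repB in 1992 (82.3%). Against repA alone 1085 genes were 2-fold higher and 591 lower in S265D, while against repB alone 302 were higher and 141 lower. The median absolute log2 difference was 0.36 from repA, 0.20 from repB and 0.46 between the WT samples, so S265D differed from either WT culture by less, at the median gene, than they differed from each other.

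**Figure D1:**
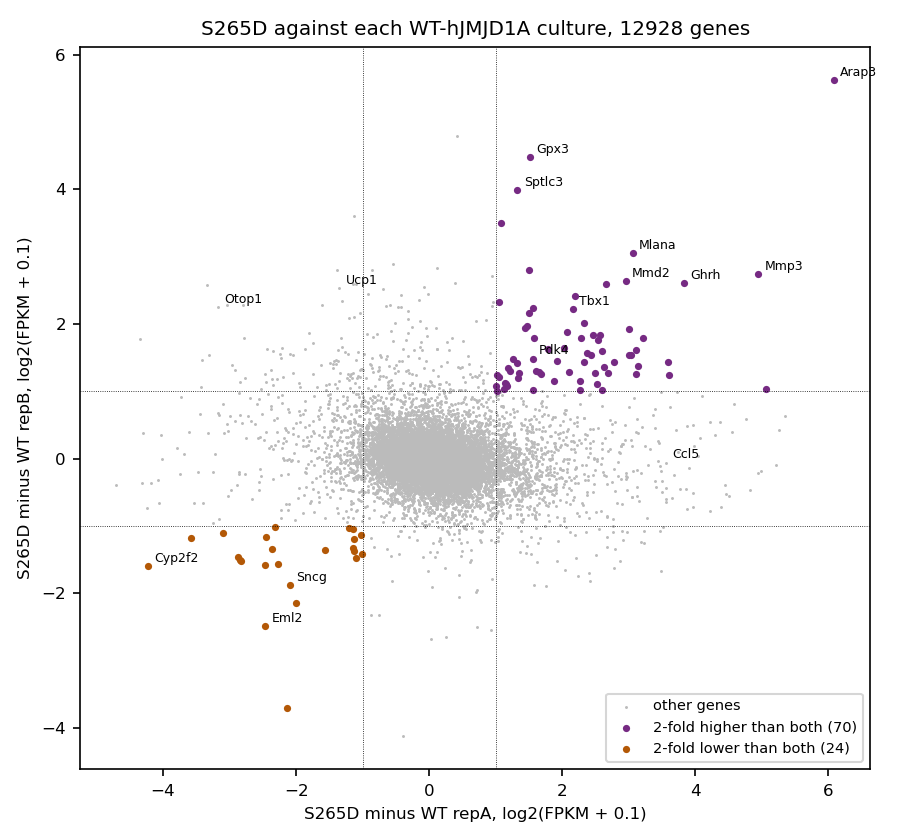
Each point is 1 of 12928 genes, with the log2(FPKM + 0.1) difference of S265D from WT repA on the horizontal axis and from WT repB on the vertical axis. The 70 purple genes lie past 2-fold (dotted lines) above both WT samples and the 24 orange genes below both. Ucp1 and Otop1 lie past 2-fold below repA and past 2-fold above repB, and Ccl5 lies far above repA and close to repB.

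The limma test, with the spread taken from the WT pair, moderated over all genes, and 1 residual degree of freedom, called 0 of 12928 genes (0%) at an adjusted p of 0.05 after Benjamini-Hochberg adjustment. The smallest adjusted p was 1, and 58 genes had an unadjusted p under 0.05. In a fit on all samples that left out 1 WT sample and took its spread from the 2 untransduced day 0 samples, 0 genes were called without repA and 638 without repB. With both WT samples in the fit no gene named below is shown to differ by a test, and the values are given as a description of 3 cultures.

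The genes past 2-fold were mostly of low level. The median FPKM in S265D was 3.52 for the 70 higher genes against 9.34 for all genes tested. At least 5 FPKM in any of the 3 samples was reached by 31 of the 70 higher genes and 4 of the 24 lower genes, against 73.5% of all genes tested. Past 3-fold were 20 higher and 5 lower genes, and past 4-fold 9 and 2. Just inside the limit were Fam71f2 with a margin of 1.00 and Cdh11 with 1.01, and just outside were Tnfsf9 with 0.998 and Itih2 with 0.993.

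Arap3 had the largest margin. This gene, which encodes a GTPase-activating protein, was at 0.0102 FPKM in repA, 0.0517 in repB and 7.38 in S265D. In the other 8 samples it did not exceed 0.141 FPKM, so the S265D culture alone held it at this level. The log2 difference from the WT mean was 5.85 ± 0.50 (SE), with an adjusted p of 1 in limma. All 5 Arap3 transcript rows were higher in S265D than in every other sample, but unevenly, from 3.42 FPKM on the row that covers 1 end of the gene to 11.9 on the row that covers only the other.

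Of 31 thermogenic genes tested 2 were 2-fold above both WT samples, against 0.541% of all genes, and 0 were 2-fold below both. The list was chosen with earlier results of these data known, so these 2 members are not a result about thermogenic genes as a group. Tbx1 (chr16:18581806-18587062 in mm9), a T-box transcription factor used as a marker of beige cells, was at 1.497 FPKM in repA, 1.43 in repB and 7.03 in S265D. S265A stood at 2.00 and S265D-H1120Y, whose second change replaces a histidine of the catalytic site, at 0.769, and the untransduced ROS cells of day 8 at 3.01. Tbx1 was therefore highest in S265D of all these cultures, and the WT pair lay close together. The difference from the WT mean was 2.19 ± 0.46 (SE) in log2, with an adjusted p of 1 in limma. The second transcript row of Tbx1 gave 1.21, 1.27 and 7.20 FPKM, so both rows had the same order.

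Pdk4 (chr6:5433351-5446278), the kinase that shuts pyruvate dehydrogenase and spares glucose while fat is burned, was at 64.6 FPKM in repA, 68.0 in repB and 190 in S265D. S265A had 80.4 FPKM, S265D-H1120Y 70.6, untransduced day 8 cells with ROS 145 and those without ROS 10.4. The WT pair and both other mutants thus clustered near 70, and S265D stood above the untransduced ROS cells. The difference from the WT mean was 1.52 ± 0.46 (SE) in log2, with an adjusted p of 1 in limma. Of the 70 higher genes Pdk4 had the highest FPKM.

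Mmp3, Spon1, Masp1 and Sfrp2, which encode secreted proteins, were among the 15 leading genes. Mmp3, stromelysin, was at 0.193, 1.25 and 8.95 FPKM in repA, repB and S265D. Spon1, a secreted matrix protein, was at 4.60, 8.70 and 25.4. Masp1, a protease of the lectin pathway of complement, was at 0.904, 1.57 and 5.84. In these 3 genes the WT samples differed from each other, yet S265D exceeded the higher of them by more than 2-fold. Mmp3 reached 8.34 FPKM in untransduced day 8 cells without ROS and Masp1 5.80 in S265D-H1120Y, both near the S265D value. Spon1 reached at most 14.6 in other cultures, in untransduced day 8 cells without ROS. Sfrp2, a secreted Wnt antagonist of preadipocytes, was at 10.2, 9.55 and 25.6 FPKM, but reached 36.9 in S265A and 28.8 in untransduced cells without ROS. The S265D value of Sfrp2 was thus within the range of the other cultures.

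Ghrh (chr2:157155232-157172391), the hypothalamic releasing hormone for growth hormone, was at 1.72 FPKM in repA, 4.17 in repB and 25.9 in S265D. It was at 23.0 in S265D-H1120Y and 8.25 in S265A, and at 0.304 and 0 in untransduced day 8 cells with and without ROS. All 5 transduced cultures lay above both of these. Mlana, a melanosome protein, was at 0.585, 0.590 and 5.61 FPKM, with 4.57 in S265D-H1120Y and 4.14 in untransduced ROS cells. Here it was the WT pair that was low among the ROS cultures. Mmd2 (chr5:143039435-143084706), a progestin and adipoQ receptor family protein, was at 3.23, 4.07 and 25.8 FPKM, with 1.76 in S265A and 1.19 in S265D-H1120Y, so S265D stood alone.

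In 3 genes repB was far below repA and S265D above both. Gpx3, the secreted glutathione peroxidase, was at 4.98, 0.550 and 14.4 FPKM, but reached 21.8 in S265A. Sptlc3, a subunit of serine palmitoyltransferase for sphingolipid synthesis, was at 11.4, 1.73 and 28.8. Peg10, a retrotransposon-derived imprinted gene, was at 6.67, 1.16 and 14.2. For these genes the WT pair was at least as far apart as repA was from S265D. Snurf, at 1.92, 1.32 and 5.50 FPKM, and Snrpn are read from 1 imprinted locus and share exons, so they count as 1 signal. It was at 0.0765 FPKM in S265A and 0.0883 in S265D-H1120Y. Prl2c3, at 3.71, 5.16 and 14.3 FPKM, belongs to a family of near-identical placental prolactin genes, and its reads are uncertain.

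**Figure D2:**
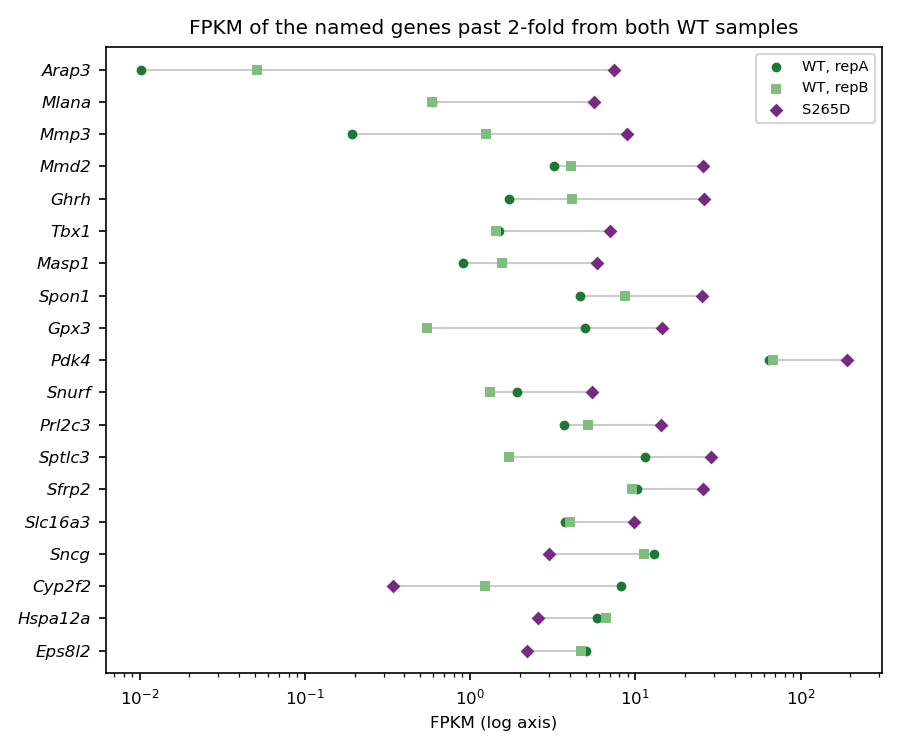
FPKM on a log axis of the 15 genes with the largest margins above both WT samples and the 4 below both, among genes with at least 5 FPKM in any of the 3 samples. Each symbol is 1 sample, and S265D (diamond) lies outside the WT pair (circle and square) in every line, to the right in the 15 upper lines and to the left in the 4 lower ones.

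Few genes at a readable level were 2-fold lower in S265D. Sncg (chr14:35183460-35187855), gamma-synuclein, which is abundant in adipocytes, was at 13.1 FPKM in repA, 11.3 in repB and 2.99 in S265D. S265A had 3.06 and S265D-H1120Y 1.75, so all 3 mutants lay below both WT samples, while untransduced day 8 cells had 5.44 with ROS and 19.4 without. The difference from the WT mean was -1.98 ± 0.47 (SE) in log2, with an adjusted p of 1 in limma. Hspa12a, an atypical heat shock protein, was at 5.88, 6.66 and 2.60 FPKM, and Eps8l2, an actin regulator, at 5.05, 4.72 and 2.22. Untransduced day 8 cells with ROS had 1.06 FPKM of Hspa12a and 2.61 of Eps8l2. S265A and S265D-H1120Y had 2.96 and 6.01 of Hspa12a, and 4.03 and 2.65 of Eps8l2. Cyp2f2, a cytochrome P450, was at 8.17 in repA and 1.23 in repB against 0.342 in S265D, so its WT pair was wide apart. Eml2, a microtubule-binding protein, was at 2.32, 2.36 and 0.340 FPKM with the WT samples close together. It was at 0.620 FPKM in S265A and 0.929 in S265D-H1120Y, so here too all 3 mutants lay below both WT samples. The highest levels just short of the limit belonged to Gstz1 at 86.8, 71.1 and 36.9 FPKM and Prps1 at 36.7, 34.6 and 18.2.

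Among 31 thermogenic genes tested S265D was between the WT samples in 22. It was above both in 7 (22.6%, against 21.9% of all genes) and below both in 2. It exceeded repB in 26 of 31 and repA in 10 of 31. The median log2 difference was 0.92 from repB and -0.62 from repA, against -0.0044 and 0.03 over all genes, and repB lay below repA by 1.64 at the median. Whether S265D appears to have more or less thermogenic RNA than WT thus turned on which WT culture it was set against.

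Ucp1 was at 12.1 FPKM in repA, 0.724 in repB and 4.67 in S265D, and its difference from the WT mean was 0.59 ± 1.69 (SE) in log2, with an adjusted p of 1 in limma. Elovl3, a fatty acid elongase of brown fat, was at 70.4, 2.57 and 32.3, and Cpt1b, which admits fatty acids to mitochondria, at 76.4, 7.01 and 15.01. Otop1, a proton channel, was at 11.5, 0.171 and 1.19. All 4 had the same order, with repA highest and repB lowest. Ppara, the nuclear receptor for fatty acid oxidation, was at 12.1, 1.83 and 5.69, and Prdm16, a coregulator of the brown fate, at 1.25, 0.0128 and 0.110. Prdm16 was thus under 1 FPKM in S265D and in repB. Fgf21, a hormone that promotes browning, was at 29.1, 5.93 and 9.40 FPKM.

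The members above both WT samples were Tbx1, Pdk4, Adrb3, Cox7a1, Cidea, Ppargc1a and Ebf2. Adrb3, the beta3-adrenergic receptor of adipocytes, was at 5.48, 5.58 and 9.65 FPKM, with 2.18 in S265A, 2.47 in S265D-H1120Y and 4.25 in untransduced ROS cells. S265D was therefore the highest of the day 8 ROS cultures. Cox7a1, a cytochrome oxidase subunit of thermogenic fat, was at 123, 83.8 and 171, and Cidea, a lipid droplet protein, at 33.2, 7.03 and 43.4. Ppargc1a, the coactivator that drives mitochondrial genes, was at 9.11, 3.14 and 9.86. For Cidea and Ppargc1a S265D was close to repA and well above repB. The members below both were Kcnk3, a potassium channel, at 83.3, 31.3 and 25.5 FPKM, and Letmd1 at 23.8, 20.8 and 20.0.

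**Figure D3:**
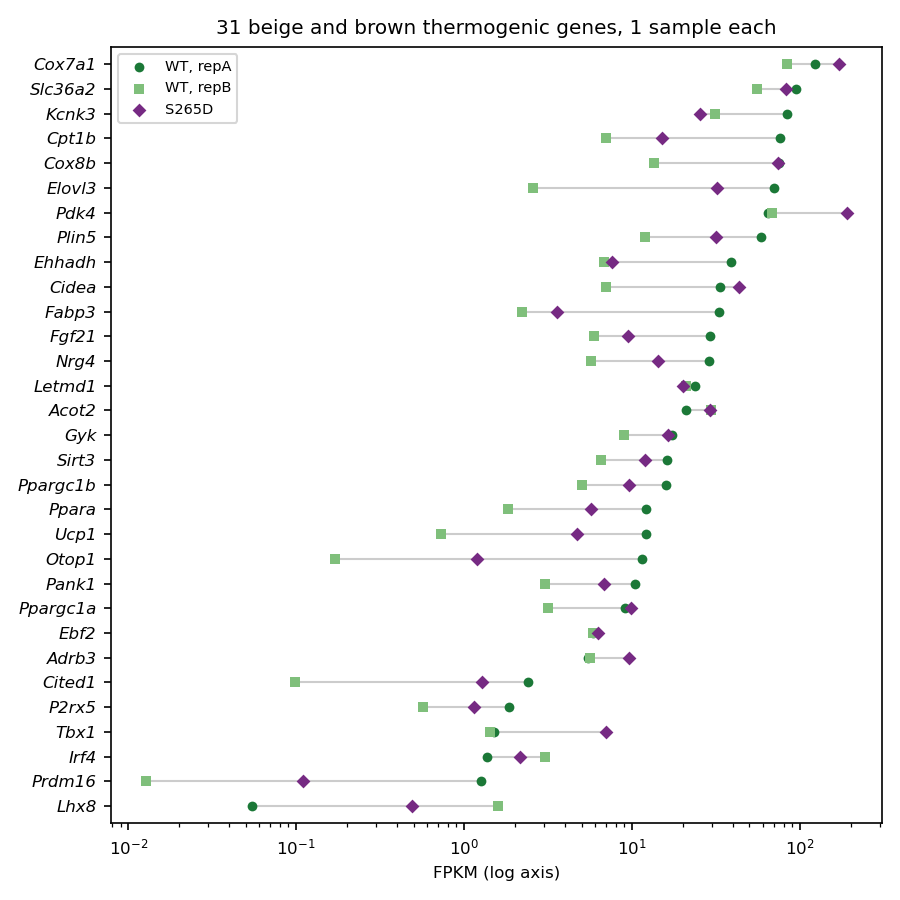
FPKM on a log axis of the 31 thermogenic genes tested, sorted by their level in WT repA, with 1 symbol per sample. In 22 genes the S265D diamond lies between the WT samples, and only Tbx1 and Pdk4 lie past 2-fold above both.

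Fatty acid oxidation genes lay below repA. Of 23 mitochondrial fatty acid oxidation genes 0 were above both WT samples (0%, against 21.9% of all genes). Between them were 17, and 6 were below both (26.1%, against 20.4% of all genes). S265D was below repA in every one of the 23. Hadhb, a subunit of the trifunctional protein, was at 323, 162 and 277 FPKM, and Acaa2, which cleaves the last acetyl unit, at 361, 91.9 and 180. Of 75 respiratory chain and ATP synthase genes 65 were between the WT samples (86.7%, against 57.7% of all genes). S265D was above repB in 68 and above repA in 7. Atp5b, the catalytic subunit of ATP synthase, was at 2409, 1152 and 1424 FPKM. S265D thus stood between the WT cultures for both groups, at a median of 0.27 above repB for fatty acid oxidation and 0.26 for the respiratory chain in log2.

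The general adipogenic genes showed no 2-fold difference. Of 24 tested, 4 were above both WT samples (16.7%, against 21.9% of all genes), 8 below both (33.3%, against 20.4%) and 12 between. Pparg was at 89.8, 95.6 and 100.4 FPKM, and Fabp4 lay between the WT samples. Adipoq, at 978, 738 and 589, had the most negative margin of the named members, -0.33. Gpd1, which makes the glycerol backbone of triglyceride, was at 1188, 864 and 725 FPKM. Of 17 lipogenesis genes 14 were between the WT samples, and Scd1, the main fatty acid desaturase, was at 4042, 3781 and 4615. Of 23 cholesterol synthesis genes 8 were below both (34.8%, against 20.4% of all genes) and 3 above, with Insig1, a sterol sensor, at 444, 406 and 340 FPKM. Of 19 general housekeeping genes 6 were also below both (31.6%) and 2 above (10.5%). The shares below both of the adipogenic and cholesterol genes were thus near that of the housekeeping genes.

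Hypoxia and glycolysis genes lay above both WT samples in 16 of 32 (50.0%, against 21.9% of all genes), below both in 3 and between in 13. None passed 2-fold. The median log2 difference was 0.07 from repA and 0.54 from repB. Apart from Hk2, Pfkp, Aldoa and Eno2, the members above both WT samples lie outside the glycolytic chain itself. Pfkp, the platelet form of phosphofructokinase, was at 53.0, 58.5 and 113 FPKM, and Slc2a1, the glucose transporter GLUT1, at 29.2, 41.8 and 70.0. Car9, a carbonic anhydrase at the cell surface, was at 1.64, 0.574 and 3.27. Ndrg1, a stress-response gene, was at 43.3, 82.3 and 117. All 4 were also high in S265D-H1120Y, where they stood at 137, 171, 8.99 and 585 FPKM, so S265D was not the highest culture for any of them. Adm, adrenomedullin, at 5.96, 11.4 and 19.5 FPKM, was lower in S265D-H1120Y, at 11.7.

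The abundant glycolytic enzymes were mostly between the WT samples. Gapdh was at 5191, 4135 and 5138 FPKM, Pgk1 at 1848, 1006 and 1772, and Ldha, which makes lactate, at 1067, 607 and 991. S265D was slightly below repA for these 3 enzymes, by a log2 difference of -0.11 at most, and above repB. Slc16a3, the lactate exporter MCT4, is not in the list but was among the genes past 2-fold, at 3.78, 4.04 and 9.83 FPKM. Ak4, a mitochondrial adenylate kinase, also passed, at 12.7, 13.2 and 28.5, and Ndufa4l2, which restrains complex I under low oxygen, at 2.68, 1.04 and 5.64. In S265D-H1120Y Ak4 was higher still, at 39.6 FPKM, while Ndufa4l2 was at 1.95. These 2 were picked out after their values were seen.

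**Figure D4:**
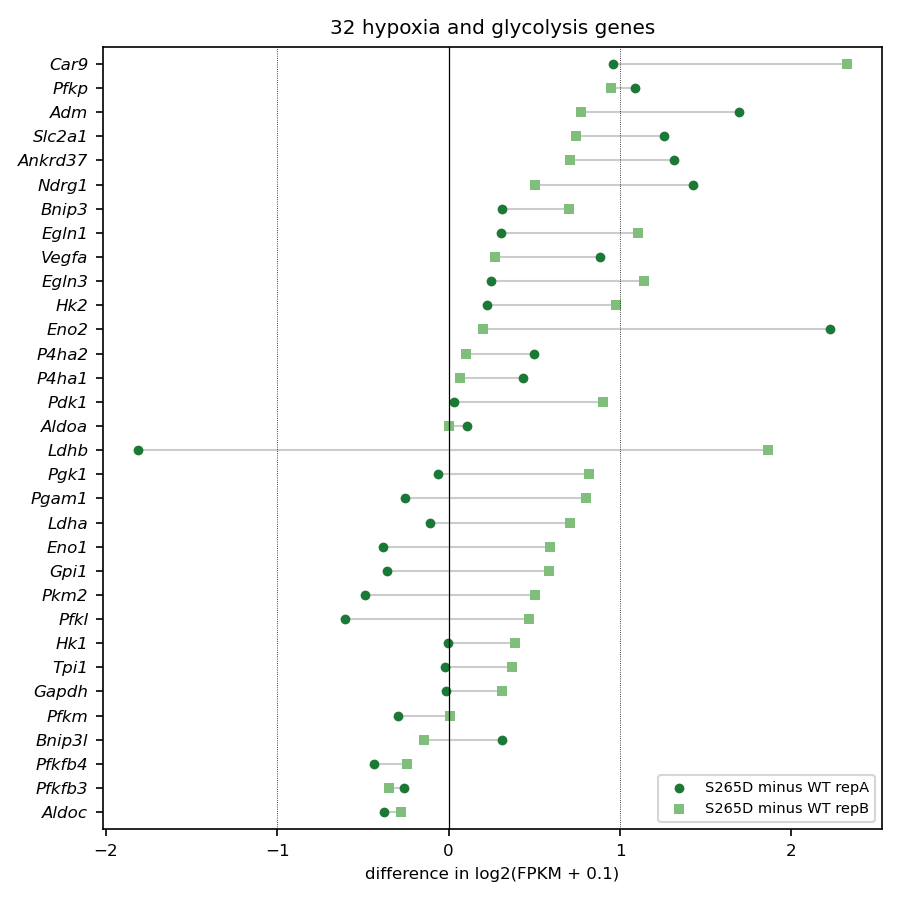
Difference in log2(FPKM + 0.1) of S265D from WT repA (circles) and WT repB (squares) for the 32 hypoxia and glycolysis genes tested, with dotted lines at 2-fold. In 16 genes both symbols lie to the right of 0, in 3 both lie to the left, and in none do both pass 2-fold.

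Because these genes stood above both WT samples together, the 250 bases before their start sites were read from the mm9 genome. ACGTG, the core bound by hypoxia-inducible factors, was searched on both strands. It lay in 9 of the 16 windows (56.2%) and in 14 of the 32 of the list (43.8%), against 2495 of 11206 genes tested that had a window (22.3%). The list was picked for hypoxia and glycolysis, so its share of this core is no result about S265D. The 16 were then chosen by the FPKM values compared here. Among the genes 2-fold higher in S265D, ACGTG was in 13 of 62 windows (20.97%), close to the share of all genes. AGGTCA, the short site of nuclear receptors such as PPARγ, lay in 9 of these 62 (14.5%) and in 5 of 31 thermogenic genes (16.1%), against 9.83% of all. It lay in 0 of the 7 thermogenic genes for which S265D was above both WT samples. The thermogenic list was picked as well, so its share is no result about S265D. TGACG, the core of the cAMP response element, lay in 8 of 62 (12.9%) against 28.4%, and it can overlap ACGTG. A match is a run of letters and not a shown binding site.

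4 windows are printed to show where the core lies, that of Slc16a3 and those of the 3 list members with the largest margins among those that hold it. Bases run 5′ to 3′ on the strand of the gene, and capitals mark ACGTG or its reverse complement. They are chr11:120810131-120810380 on the plus strand, chr4:43519648-43519897 plus, chr4:118781100-118781349 plus and chr8:47085205-47085454 minus, all in mm9.
Slc16a3: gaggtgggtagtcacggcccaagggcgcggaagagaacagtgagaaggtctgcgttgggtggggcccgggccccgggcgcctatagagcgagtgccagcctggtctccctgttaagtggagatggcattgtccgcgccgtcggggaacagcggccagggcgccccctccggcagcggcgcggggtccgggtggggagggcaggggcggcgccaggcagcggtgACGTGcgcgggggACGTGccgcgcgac
Car9: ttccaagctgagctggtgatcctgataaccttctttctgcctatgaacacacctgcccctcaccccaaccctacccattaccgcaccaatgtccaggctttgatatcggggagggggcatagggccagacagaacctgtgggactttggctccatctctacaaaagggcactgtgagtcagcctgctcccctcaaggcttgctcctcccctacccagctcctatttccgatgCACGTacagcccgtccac
Slc2a1: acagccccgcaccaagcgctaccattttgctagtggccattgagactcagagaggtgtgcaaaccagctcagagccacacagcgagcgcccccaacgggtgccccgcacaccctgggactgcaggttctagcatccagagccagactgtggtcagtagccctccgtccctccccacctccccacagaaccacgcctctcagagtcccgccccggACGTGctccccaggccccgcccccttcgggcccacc
Ankrd37: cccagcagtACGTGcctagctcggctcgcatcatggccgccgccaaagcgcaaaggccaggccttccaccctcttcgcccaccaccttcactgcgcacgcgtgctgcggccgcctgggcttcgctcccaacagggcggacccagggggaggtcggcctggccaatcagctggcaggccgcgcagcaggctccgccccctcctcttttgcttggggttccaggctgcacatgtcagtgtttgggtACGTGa
The core begins 27 and 14 bases before the start of Slc16a3, 36 before that of Slc2a1, and 241 and 6 before that of Ankrd37. In Car9 it lies on the opposite strand 18 bases before the start.

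Preadipocyte and anti-adipogenic genes lay above both WT samples in 11 of 19 (57.9%, against 21.9% of all genes) and below both in 1. Sfrp2 alone passed 2-fold. Cd34, a surface marker of progenitors, was at 4.75, 5.13 and 9.35 FPKM, and Prrx1, a mesenchymal transcription factor, at 5.17, 11.01 and 15.2. Twist1 and Pdgfrb had margins of 0.0038 and 0.02, so their place above both WT samples rested on almost equal values. The median log2 difference of the list was 0.67 from repA and 0.02 from repB. S265D thus resembled repB in most of these genes and lay above repA in 17 of 19. Of 15 Wnt genes 7 were above both (46.7%, against 21.9% of all genes). Among them were Rspo2 at 0.521, 3.28 and 4.68 FPKM and Rspo3 at 0.760, 1.62 and 2.27, which encode R-spondins that amplify Wnt signals. Sfrp2 is in both lists.

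Immune genes set S265D beside repB. Of 47 interferon-response genes S265D was above repA in 46 and nearer to repB in 46, against 67.8% of all genes nearer to repB, with a median difference of 1.02 from repA and -0.16 from repB in log2. Isg15, a ubiquitin-like protein, was at 136, 390 and 277 FPKM, and B2m, the light chain of MHC class I, at 1387, 3819 and 3511. 14 members were above both WT samples (29.8%, against 21.9% of all genes), and 0 passed 2-fold. Among 23 chemokine and inflammatory genes 9 were above both (39.1%, against 21.9% of all genes) and 2 below (8.70%, against 20.4%). Ccl5 was at 15.3, 189 and 181 FPKM and Ccl2 at 4.16, 109 and 66.1, while Orm1, an acute-phase protein, was at 127, 229 and 332. The 3 macrophage and leukocyte markers that reached 1 FPKM had no common order, with Cd68 at 5.00, 16.6 and 10.3, Cd74 at 11.3, 14.2 and 10.1 and Cd14 at 1.27, 0.829 and 1.13 FPKM. The part of other cell types in these values was not tested.

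Matrix genes were spread in both directions, with 14 of 45 above both WT samples (31.1%) and 10 below both (22.2%). Over all genes the shares were 21.9% and 20.4%. Dcn, the proteoglycan decorin, was at 5.57, 62.8 and 88.6 FPKM, while Col3a1, a fibrillar collagen, was at 118, 133 and 77.2. Of 19 circadian clock genes 9 were above both (47.4%, against 21.9% of all genes), and the margins went up to 0.64 for Npas2, at 1.96, 2.25 and 3.56 FPKM. Among 16 glucocorticoid and cAMP targets 5 were above both (31.25%). Pde4d, a phosphodiesterase that degrades cAMP and is itself a cAMP target, was the 1 member past 2-fold, at 8.23, 7.31 and 17.1 FPKM. Among 25 retinol and alcohol dehydrogenases only Aldh1a2, which makes retinoic acid, passed, at 0.0828, 0.287 and 1.37 FPKM. Against 0.541% of all genes, 1 member of a list of this size is not a result about either list. Of 34 stress-response genes 6 were above both (17.6%) and 11 below (32.4%), and of 26 antioxidant genes 5 (19.2%) and 8 (30.8%). The shares below both in these lists were near the 31.6% of the housekeeping genes. In 20 genes for JMJD1 demethylases and H3K9 methyltransferases 4 were above, 4 below and 0 past 2-fold. Krt19, a keratin and the 1 epithelial marker of 10 that reached 1 FPKM, was at 11.01, 19.9 and 36.0.

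**Figure D5:**
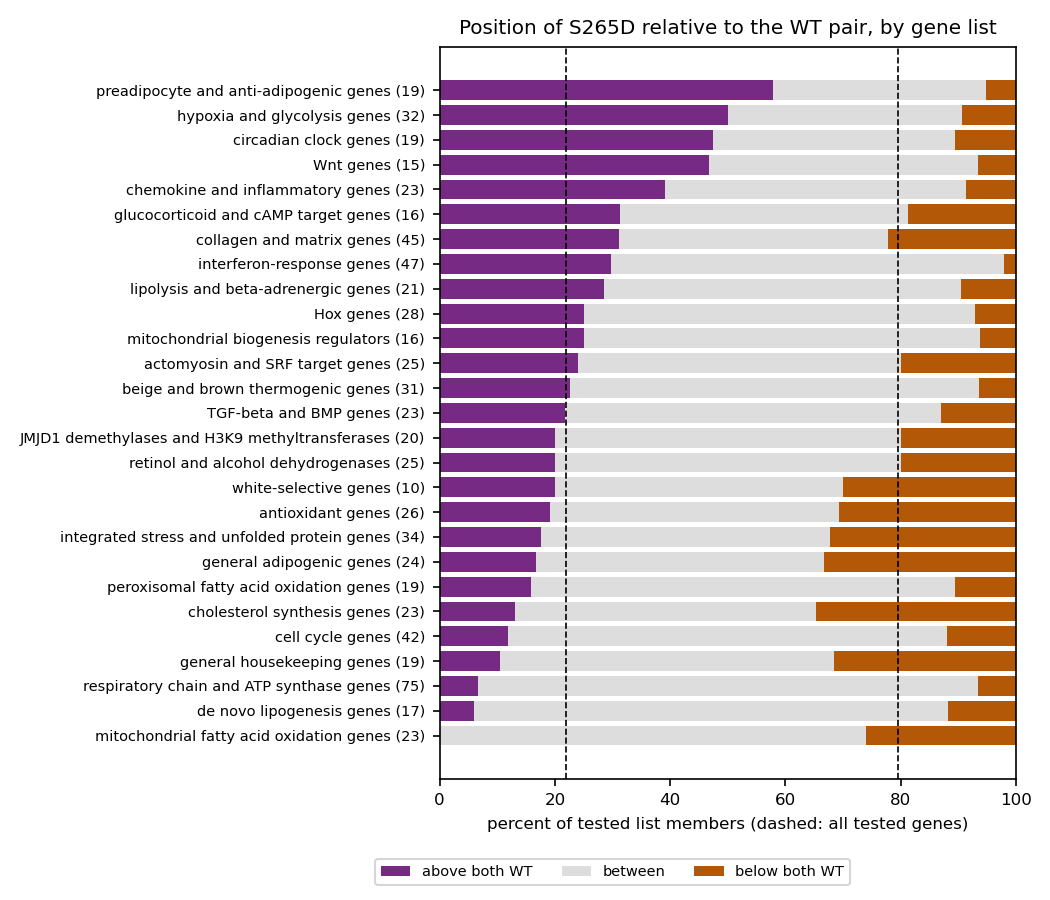
Percent of tested members of each of 27 gene lists with at least 10 tested members in which S265D lay above both WT samples (purple), between them (grey) or below both (orange), with the number tested in parentheses. Dashed lines mark all 12928 genes (21.9% above, 20.4% below), and the share above runs from 57.9% in preadipocyte genes to 0% in mitochondrial fatty acid oxidation genes.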

How the data were processed

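RNA-seq of im-scWAT cells was taken from 11 deposited tables, and groups came from the labels. The authors aligned reads with BWA to UCSC genes and mm9, realigned them locally and deposited strand-specific FPKM for 55419 transcripts. The deposited tables also hold log10 and log2 of the FPKM and the signal as mapped bases, of which only the FPKM was tested. The depth was 3.10 to 5.29 Gb. The representative sense row stood for each symbol, with a minimum of 1 FPKM in any of the 3 samples and a pseudocount of 0.1, which understates changes of low genes. limma 3.58.1 in R 4.3.3 was fitted across all genes and tested on simulated data. The simulated spread was the same for all genes and well below that of the WT pair. That check therefore does not show what the fit could detect in these data. In that 3-sample fit the p-values rest on the spread between the 2 WT samples, which may be technical, moderated by that of all genes. Named genes were the 15 largest margins in each direction (at least 5 FPKM and 300 bases of exon, no predicted genes or clones), list members past 2-fold, genes the study is about, and the most abundant members of other lists. Members and lists were chosen with earlier results of these data known. Strand for the 250-base windows came from GENCODE vM1. Python 3.11.15, pandas 2.3.3 and matplotlib 3.10.9 were used.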

Additional observations from a re-analysis of the deposited data

Results flagged for a closer look

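The antisense rows belong to no comparison above. There were 1041 antisense rows with at least 1 FPKM in any of the 3 samples. Of these, 4 (0.384%, against 0.541% of sense genes) were at least 2-fold higher in S265D than in both WT samples. At least 2-fold lower were 8 (0.768%, against 0.186% of sense genes). The highest level among these higher and lower rows was the row antisense to AK137033, at 1.90 FPKM in WT repA, 2.09 in WT repB and 5.88 in S265D. The lower rows included those antisense to Uqcrq, at 5.35, 3.24 and 0.916 FPKM, and to Gpd1, at 3.49, 2.13 and 0.794. The sense rows of these genes were far higher, at 907, 725 and 886 FPKM for Uqcrq and 1188, 864 and 725 for Gpd1. How much of the antisense signal came from sense reads given the wrong strand was not tested. The number of 4 was set aside because it lies outside the sense measurement, and no replicate of S265D checks it.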

How the results depend on the processing

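The 70 higher and 24 lower genes depended on how low values were treated. They became 33 and 2 with a pseudocount of 1, 31 and 4 with a minimum of 5 FPKM, and 178 and 51 with no minimum. With 1.5-fold they were 191 and 86, and with 3-fold 20 and 5. Leaving out 1 WT replicate gave from 302 (without repA) to 1085 (without repB) higher genes, and from 141 (without repA) to 591 (without repB) lower ones. A pseudocount of 0.01, median-ratio scaling and the transcript with the highest mean FPKM left both counts within 1.5 times. Of 21 genes past 2-fold that were picked by the naming rules, 16 stayed past it with a pseudocount of 1. Aldh1a2, Cyp2f2, Eps8l2, Hspa12a and Pde4d did not. Other genes past 2-fold that are described above, such as Peg10, Ak4, Ndufa4l2, Eml2, Cdh11 and Fam71f2, were not checked in this way. All 21 of the picked genes stayed past 2-fold under median-ratio scaling and with the transcript of the highest mean FPKM. A pseudocount of 0.01 and leaving out 1 WT sample cannot bring a gene back within 2-fold, so they test nothing here. limma called 0 genes in the 3-sample fit and in 7 other fits, with 23 to 200 genes at an unadjusted p under 0.05 and a smallest adjusted p of 0.471, in the fit on all 11 samples. Without a WT replicate the 3-sample fit has no residual degrees of freedom. The fit on all samples then takes its spread from the day 0 pair alone and assumes that the lone WT sample varies like it. In this alternative, chosen after seeing the data, limma called 0 genes without repA and 638 without repB (434 higher and 204 lower in S265D), with 2093 and 4688 genes at an unadjusted p under 0.05. No paired analysis was possible because only 1 S265D sample exists and the groups share no replicate label. The causes of these differences between settings were not tested, except that fewer or more genes are tested with another minimum.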
